A study of Homo sapiens with 48 samples.

Results

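H1975 cells treated for 24 h with 2 mg/mL CKI and 75 µM gefitinib (the CKI combination) were compared with H1975 cells treated for 24 h with 5 mg/mL YFSJ and 75 µM gefitinib (the YFSJ combination). The comparison was chosen by its labels: it uses the 3 libraries of each combination, 6 of the 48 libraries of the series. H1975 is a line of human lung adenocarcinoma with a mutated EGFR gene, and the study asked whether either preparation changes the resistance of such cells to gefitinib. CKI is compound kushen injection, while the labels give YFSJ only by its letters. The whole series holds 16 groups of 3 libraries, which the study's design calls biological replicates: untreated cells at 0 h and 24 h, and cells given gefitinib, a preparation, or both.

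The groups used beside the 2 combinations were 2 mg/mL CKI alone, 5 mg/mL YFSJ alone, 75 µM gefitinib alone, both preparations at the same doses with 50 µM gefitinib, and untreated cells at 24 h. Every group is labelled H1975, and the labels name no engineered allele. The preparations were given at different doses (2 mg/mL and 5 mg/mL), so the values compare these 2 treatments and not equal amounts of the preparations. A lower level in RNA of a whole culture cannot be told apart between fewer cells of a kind and less RNA per cell.

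Gefitinib blocks the kinase of the epidermal growth factor receptor, whose signal runs through ERK to early-response genes and onward to the genes of the cell cycle. Unfolded protein in the cytosol releases the transcription factor HSF1, which switches on heat shock chaperones, whereas lack of amino acids or stress in the endoplasmic reticulum raises ATF4 and CHOP and their targets. Low sterol in membranes releases SREBP factors, which switch on the enzymes of cholesterol and fatty acid synthesis.

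All 3 libraries of the CKI combination held transcripts of liver, and none of the YFSJ combination did. ALB, which encodes serum albumin, had 3030, 2581 and 3312 raw counts in the CKI combination against 2, 2 and 6 in the YFSJ combination. APOB, the protein of low-density lipoprotein, had 431, 362 and 462 counts against 0, 0 and 0. TTR, the thyroxine carrier transthyretin, had 74, 78 and 74 counts against 0, 0 and 0. The groups did not overlap for any of these genes. APOA1 had 78, 50 and 66 counts against 1, 3 and 1, and FGB had 145, 114 and 114 against 0, 0 and 1. CKI alone had at most 4 ALB counts per library. The signal was not confined to the CKI combination in the series. YFSJ alone at its lower dose had 3518, 3249 and 3557 ALB counts. CKI at its lower dose with 75 µM gefitinib had 4, 3302 and 2906, and 2 mg/mL CKI with 50 µM gefitinib had 2765, 8 and 2800. Of the 33 genes of a liver marker list, 29 lay above every YFSJ library, and the summed level of the list was 329 to 360 CPM (counts scaled to a common library size) in the CKI combination against 102 to 114 CPM in the YFSJ combination. Of 21 intestine markers 10 lay above every YFSJ library, and of 10 kidney markers 0 did. Over the 15683 genes kept below, the groups did not overlap by CPM, in either direction, for 63.5%. The marker counts are on raw counts, and the CKI libraries were mostly deeper, which favours a count above.

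**Figure D1:**
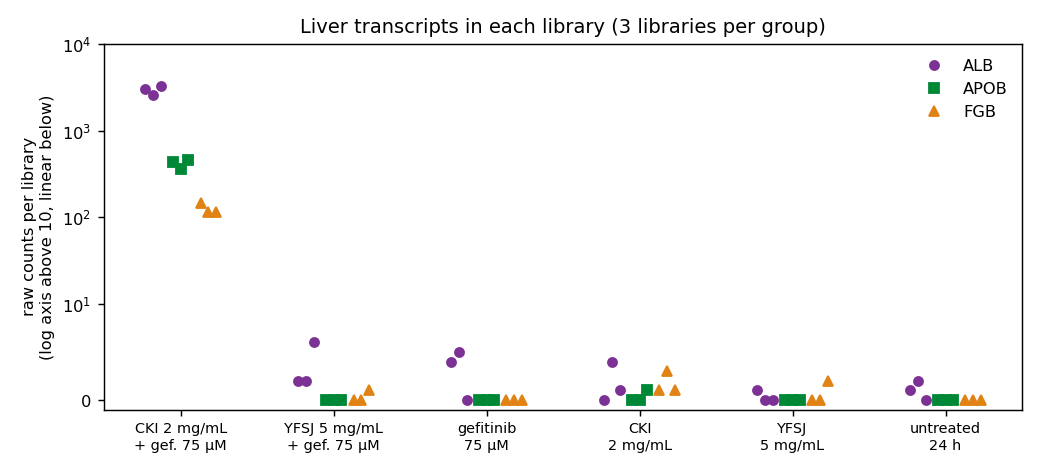
Raw counts of ALB, APOB and FGB in each library (one point per library, 3 per group), with a vertical axis that is logarithmic above 10 counts and linear below. The CKI combination had 2581 to 3312 ALB counts, and none of the other groups drawn had more than 6.

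Genes that carry this signal were set apart: those on the liver or intestine list, and those that were higher in the 7 other libraries of the series with over 1000 ALB counts than in the 35 without, by a batch term or by complete separation. They numbered 106 of the 15789 genes tested, of which 97 were called higher in the CKI combination (91.5%), 2 lower (1.89%) and 7 not at all (93.4% called). Against gefitinib alone 98 of them were called in the CKI combination (92.5%), 95 higher (89.6%) and 3 lower (2.83%), and 0 in the YFSJ combination. Between the preparations with 50 µM gefitinib 82 were called (77.4%), 79 higher (74.5%) and 3 lower (2.83%). They took 0.0845% to 0.0899% of all counts in the CKI combination against 0.0385% to 0.0403% in the YFSJ combination. This share does not measure the liver signal alone. It was 0.0711% to 0.0793% with YFSJ alone and 0.0524% to 0.0567% in untreated cells, which held almost no ALB counts. Only 6 of the 106 (5.66%) were called between CKI alone and YFSJ alone, all 6 lower in CKI. The libraries with 50 µM gefitinib, of gefitinib alone and of each preparation alone were among those by which genes were picked. The counts of set-apart genes that use these libraries therefore follow in part from that choice. The rule did not catch every such gene: CFHR2, a complement regulator made by liver and named after its values were seen, averaged 0.417 CPM in the CKI combination against 0 in the YFSJ combination. The libraries with over 1000 ALB counts and the treatment cannot be told apart within this comparison, and every count below leaves the 106 genes out.

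The libraries held 19370502 to 21939741 counts in the CKI combination against 16521207 to 20297017 in the YFSJ combination. Symbols with at least 1 count numbered 18989 to 19338 against 17630 to 18044, and the mitochondrial ribosomal transcript RNR2 took 1.39% to 1.56% of counts against 0.793% to 0.947%. Blood cell markers summed to 25.05 to 26.03 CPM in the CKI combination against 18.6 to 20.2 CPM in the YFSJ combination (7 of 16 above every YFSJ library), and fibroblast markers to 272 to 363 CPM against 455 to 495 CPM (6 of 16 above, 2 below). The catalogue number in the growth protocol is that of MCF-7, a luminal breast line, so both identities were checked. NKX2-1, the lung lineage factor, had 842, 820 and 998 counts in the CKI combination against 931, 741 and 977 in the YFSJ combination, while the breast markers ESR1 (at most 5 counts) and PGR (0 counts) were at or near 0 in both. GATA3, another breast marker, had 8, 8 and 8 counts against 15, 18 and 11. TFF1, a further breast marker, went the other way, with 21, 21 and 25 counts against 5, 6 and 7. SFTPB, a surfactant protein of alveolar cells, had at most 1 count. The sum of 20 luminal breast markers was 2475 to 2584 CPM against 2098 to 2207 CPM (10 of 20 above every YFSJ library, 2 below). These markers include the keratins KRT8 and KRT18, at mean levels of 1613 and 410.1 CPM in the CKI combination. The markers above or below were again counted on raw counts, beside 63.5% of all genes without overlap by CPM. The part of depth, RNR2 or these markers in the results was not tested.

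The 2 combinations differed widely. Of the 15683 genes left, 8796 (56.1%) were called at an adjusted p under 0.05, 4319 higher (27.5%) and 4477 lower (28.5%) in the CKI combination. Past a 2-fold difference, 1263 genes (8.05%) were higher and 1054 (6.72%) lower. The libraries of the groups did not overlap for 9957 genes (63.5%). The median log2 fold change over all these genes was -0.0095. Counts of called genes in each list below are to be read beside the 27.5% higher and 28.5% lower.

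Each combination was also set against 75 µM gefitinib alone. CKI with gefitinib differed from gefitinib alone for 9092 genes (58.0%), 4454 higher (28.4%) and 4638 lower (29.6%), and YFSJ with gefitinib for 546 genes (3.48%), 283 higher (1.8%) and 263 lower (1.68%). Both counts use the same 3 libraries of gefitinib alone. Of the 4319 genes higher in the CKI combination, 3670 were called against gefitinib alone in the CKI combination only, 46 in the YFSJ combination only, 36 in both and 567 in neither. For the 4477 lower genes these counts were 3785, 59, 47 and 586. The YFSJ count depends on the fit: it was 1085 when only the libraries compared were used.

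**Figure D2:**
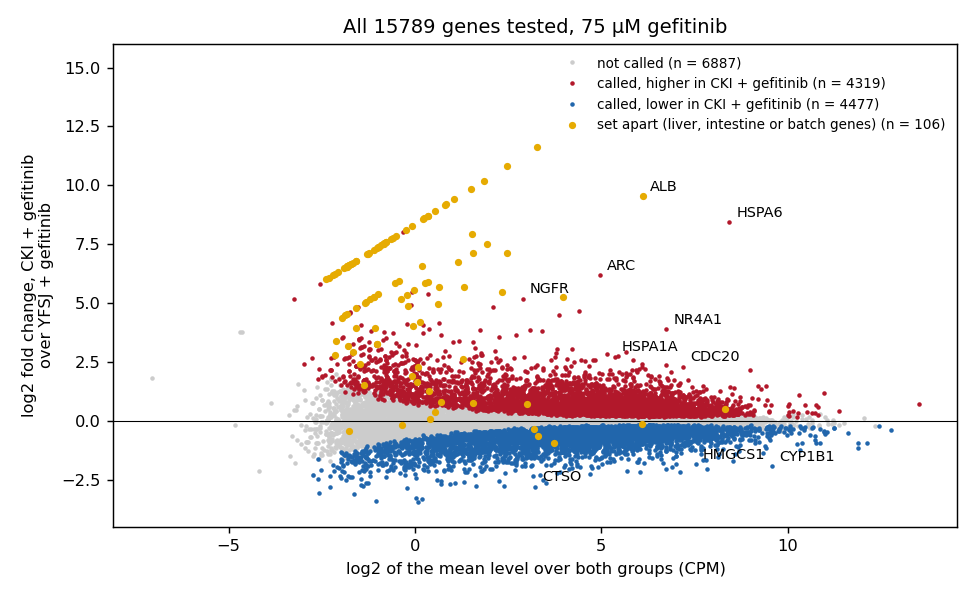
Log2 fold change of each gene tested, CKI combination over YFSJ combination, against the log2 of its mean level in CPM over both groups; 1 gene with no counts in either group is not drawn. Red and blue genes were called higher and lower, grey genes were not called, and the 106 genes set apart (yellow) lie mostly above 0, many of them on lines of genes with no counts in the YFSJ combination.

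Heat shock genes were mostly higher in the CKI combination than in the YFSJ combination. They held the largest rise among genes that averaged 5 CPM or more in the higher group. HSPA6, a stress-inducible HSP70 chaperone that is nearly silent in unstressed cells, had 782, 642 and 646 CPM in the CKI combination against 2.32, 1.57 and 1.98 CPM in the YFSJ combination. Its log2 fold change was 8.44 ± 0.18 (SE), with an adjusted p of 8.10e-35. Gefitinib alone gave 2.48, 2.56 and 2.36 CPM, and CKI alone 134, 109 and 134 CPM, so CKI alone lay between the CKI combination and the rest. HSPA6 shares reads with the near-identical pseudogene HSPA7, which makes its exact level uncertain.

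The start regions of HSPA6 and HSPA8 are shown because both carry a heat shock element while only HSPA6 differed. Both sequences are RefSeq promoters on GRCh38.p14, from 250 bases before to 50 after the gene's start, HSPA6 at chr1:161524290-161524589 on the plus strand and HSPA8 at chr11:123062087-123062386 on the minus strand. Capitals mark matches to 3 units of the element HSF1 binds, that is GAA, TTC and GAA with NN between neighbours, on either strand.
HSPA6: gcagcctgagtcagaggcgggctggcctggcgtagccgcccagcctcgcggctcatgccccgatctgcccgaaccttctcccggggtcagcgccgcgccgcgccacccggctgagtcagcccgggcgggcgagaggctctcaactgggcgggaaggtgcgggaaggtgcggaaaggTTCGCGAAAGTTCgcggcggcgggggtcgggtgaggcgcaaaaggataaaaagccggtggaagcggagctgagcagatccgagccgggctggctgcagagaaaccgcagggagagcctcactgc
HSPA8: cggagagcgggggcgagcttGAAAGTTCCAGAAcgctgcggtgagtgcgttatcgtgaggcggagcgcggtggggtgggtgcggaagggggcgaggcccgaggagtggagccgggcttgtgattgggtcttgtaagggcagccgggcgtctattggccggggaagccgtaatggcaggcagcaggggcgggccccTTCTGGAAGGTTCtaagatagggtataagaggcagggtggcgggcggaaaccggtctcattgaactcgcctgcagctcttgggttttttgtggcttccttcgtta
HSPA8, the constitutive HSP70, had 1092, 821 and 799 CPM in the CKI combination against 1031, 1000 and 931 CPM in the YFSJ combination, which overlap, and a log2 fold change of -0.13 ± 0.13 that was not called (adjusted p 0.431). The motif was found in 4 of the 22 heat shock genes with a promoter entry (18.2%: CHORDC1, DNAJA1, HSPA6 and HSPA8) and in 42 of 11626 tested genes with one (0.361%). A match is a description of letters and not of binding.

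Of the 25 heat shock genes tested, 21 were higher in the CKI combination, 0 lower and 4 not called, with a median log2 fold change of 0.97. The list summed to 9492 to 11020 CPM in the CKI combination and 6831 to 7325 CPM in the YFSJ combination. The sum was 8038 to 8553 CPM with gefitinib alone, 8073 to 8449 CPM with CKI alone and 10430 to 11040 CPM with YFSJ alone. Untreated cells had 11050 to 11840 CPM, so by this sum the CKI combination lay below them. HSPA1A, another inducible HSP70, had 79.8, 64 and 68.8 CPM in the CKI combination against 8.93, 9.6 and 13.7 CPM in the YFSJ combination, a log2 fold change of 2.72 ± 0.14. The groups did not overlap, but HSPA1A and HSPA1B (log2 fold change 2.74 ± 0.17) are near-identical copies between which reads cannot be split with certainty. DNAJB1, the co-chaperone that feeds clients to HSP70, averaged 833 ± 87.6 CPM against 186 ± 7.76 CPM (SD, n = 3 each), a log2 fold change of 2.17 ± 0.11. BAG3, a co-chaperone of HSP70 in autophagy, and HSPH1, its nucleotide exchange factor, differed by 1.48 ± 0.094 and 1.20 ± 0.11 (log2). The cytosolic HSP90 genes moved little: HSP90AA1 differed by 0.23 ± 0.12 (log2), which was not called, and HSP90AB1 rose by 0.18 ± 0.069. CRYAB, a small heat shock protein, averaged 2.2 ± 0.654 CPM against 0.132 ± 0.115 CPM (SD, n = 3 each). HSPA1B, HSPA8, BAG3, HSPH1, CRYAB and the HSP90 genes were named after their values were seen.

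The other large rises were of genes with varied roles. ARC, an activity-induced immediate early gene best known in neurons, had 64.9, 58.6 and 60.9 CPM in the CKI combination against 0.869, 0.906 and 0.747 CPM in the YFSJ combination, a log2 fold change of 6.18 ± 0.19. NR4A1, an immediate early nuclear receptor, had 196, 188 and 218 CPM against 13.2, 12.4 and 14.6 CPM, a log2 fold change of 3.90 ± 0.19. GADD45G, a growth arrest and DNA damage protein, had 45.3, 34.3 and 41.3 CPM against 1.64, 1.45 and 1.6 CPM (4.68 ± 0.25). None of these 3 overlapped between the groups. RGS2, which shortens G protein signals, NGFR, the low-affinity neurotrophin receptor, and PGF, placental growth factor, rose by 4.48 ± 0.23, 5.18 ± 0.28 and 3.81 ± 0.19 on the log2 scale. DLL4, a Notch ligand, and HES7, a HES family repressor, rose by 3.85 ± 0.30 and 3.86 ± 0.24. GZMM, a granzyme of lymphocytes, averaged 8.23 ± 2.76 CPM in the CKI combination against 0.28 ± 0.0858 CPM in the YFSJ combination (SD, n = 3 each). GZMM was also higher with CKI alone than with YFSJ alone (4.05 ± 0.38), in libraries without liver transcripts.

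Every one of the 30 mitosis and spindle genes tested was higher in the CKI combination. CDC20, which switches on the anaphase-promoting complex, had 258, 230.3 and 240.4 CPM in the CKI combination against 45.9, 54.2 and 48 CPM in the YFSJ combination. Its log2 fold change was 2.30 ± 0.086 with an adjusted p of 5.04e-25, and the groups did not overlap. PLK1, the polo-like kinase of mitotic entry, had 143, 148 and 152 CPM against 35.3, 39.3 and 42.8 CPM, a log2 fold change of 1.92 ± 0.10. AURKA, the centrosomal Aurora kinase, had 88, 79.8 and 78.9 CPM against 28.8, 27.9 and 27.4 CPM (1.55 ± 0.085). The 30 log2 fold changes ran from 0.73 to 2.30 with a median of 1.57. The summed level of the list was 2076 to 2388 CPM in the CKI combination, 669 to 743 CPM in the YFSJ combination, 845 to 858 CPM with gefitinib alone, 1709 to 2010 CPM with CKI alone, 4307 to 4582 CPM with YFSJ alone and 4668 to 4741 CPM in untreated cells. Thus the CKI combination lay above the YFSJ combination and below untreated cells.

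The start regions of CDC20 and PLK1 are shown for the cell cycle homology region, an element of the promoters of cell cycle genes. They are RefSeq promoters on GRCh38.p14, CDC20 at chr1:43358731-43359030 and PLK1 at chr16:23678639-23678938, both on the plus strand. Capitals mark matches to the letters of its core, TTTGAA on either strand, which do not show binding.
CDC20: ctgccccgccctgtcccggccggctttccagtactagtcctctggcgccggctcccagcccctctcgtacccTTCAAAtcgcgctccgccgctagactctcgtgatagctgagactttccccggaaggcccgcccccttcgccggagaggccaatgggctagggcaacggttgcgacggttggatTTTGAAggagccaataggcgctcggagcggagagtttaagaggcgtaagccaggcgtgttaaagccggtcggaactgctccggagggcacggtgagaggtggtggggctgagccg
PLK1: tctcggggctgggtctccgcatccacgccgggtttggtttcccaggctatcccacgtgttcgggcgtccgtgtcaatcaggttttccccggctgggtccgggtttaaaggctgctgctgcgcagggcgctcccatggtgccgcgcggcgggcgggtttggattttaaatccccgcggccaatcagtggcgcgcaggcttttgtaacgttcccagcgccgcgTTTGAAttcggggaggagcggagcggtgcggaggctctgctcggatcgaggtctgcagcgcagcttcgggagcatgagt
The core was found in 18 of the 25 mitosis genes with a promoter entry (72.0%), in 1 of 29 replication genes (RRM1) and in 1135 of the 11626 tested genes with one (9.76%). CCAAT, read on both strands, was found in 19 of the 25 mitosis genes, 16 of the 29 replication genes and 35.8% of the tested genes.

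DNA replication and repair genes were also higher in the CKI combination. Of 34 replication and nucleotide supply genes, 29 rose, 0 fell and 5 were not called, with a median log2 fold change of 0.73. CDC6, which loads the replicative helicase, had 90.0, 88.2 and 89.1 CPM in the CKI combination against 25.2, 26.6 and 23.4 CPM in the YFSJ combination, a log2 fold change of 1.83 ± 0.11, with no overlap. CDT1, its partner, averaged 91.2 ± 6.18 CPM against 32.3 ± 2.92 CPM, and GINS2, a subunit of the active helicase, 30.4 ± 3.64 against 9.68 ± 0.57 CPM (SD, n = 3 each). The 5 not called were POLA1, MCM6, GINS3, POLE and MCM3, with log2 fold changes from -0.20 to 0.09. Of 25 homologous recombination and Fanconi genes, 20 rose and 3 fell (FANCC, FANCL and PALB2), with a median of 0.63; only 1 fell without library 2 or 3 of the CKI combination or library 1 or 2 of the YFSJ combination. EXO1, an end-resecting exonuclease, RAD54L, a motor protein of recombination, and FANCA, of the Fanconi core complex, rose by 1.68 ± 0.12, 1.53 ± 0.11 and 1.19 ± 0.11 (log2). With a term in the fit that marks the ALB-rich libraries, the mitosis genes numbered 30 higher, the replication genes numbered 23 higher and the repair genes 15 higher and 1 lower.

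**Figure D3:**
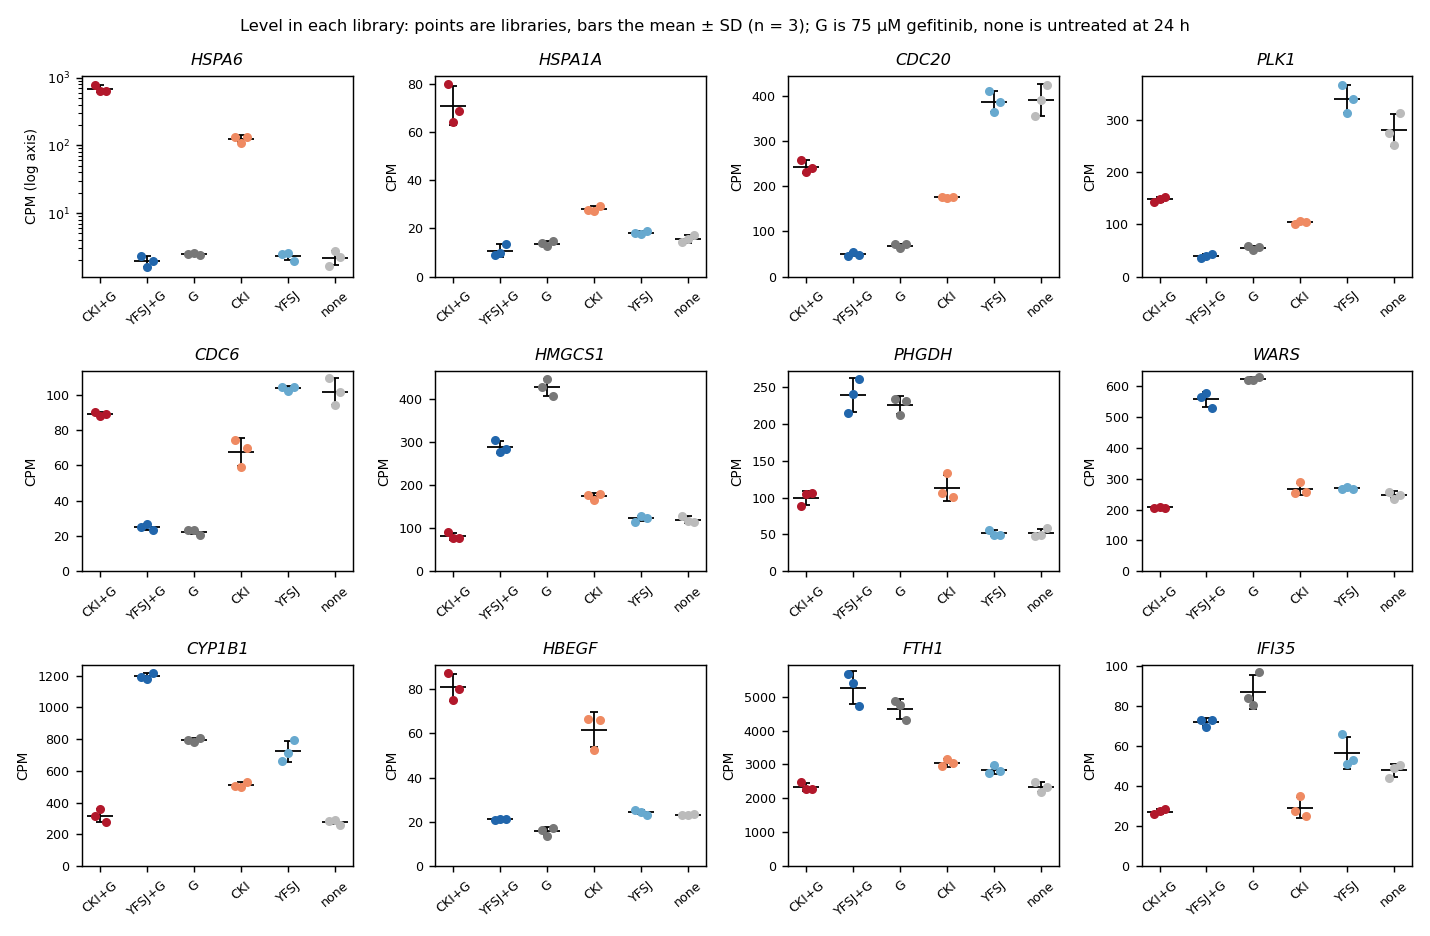
Level in CPM of 12 named genes in each library of 6 groups (points), with the mean and SD (n = 3); the HSPA6 axis is logarithmic and the others start at 0. The CKI combination (leftmost) stood apart from the YFSJ combination next to it for every gene drawn, and by its mean gefitinib alone lay nearer the YFSJ combination for each.

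RNA of cholesterol synthesis genes was lower in the CKI combination than in the YFSJ combination. Of 25 genes of cholesterol synthesis and uptake, 24 fell and 1 rose, with a median log2 fold change of -0.999. HMGCS1, which makes the HMG-CoA from which mevalonate comes, had 90.5, 76.5 and 76.2 CPM in the CKI combination against 305, 277 and 284 CPM in the YFSJ combination, a log2 fold change of -1.83 ± 0.11. SQLE, squalene epoxidase, had 55.4, 49.4 and 50.0 CPM against 149, 138 and 141 CPM (-1.47 ± 0.083). MSMO1, a sterol demethylating enzyme, had 56.1, 44.3 and 43.3 CPM against 165, 138 and 137 CPM (-1.61 ± 0.12). None of the 3 overlapped between the groups. INSIG1, which holds SREBP factors back when sterol is plentiful, fell by 1.14 ± 0.10 on the log2 scale. The gene that rose was NPC1L1, the intestinal sterol transporter, at 5.47 ± 1.42 CPM against 0.651 ± 0.21 CPM (SD, n = 3 each). INSIG1 and NPC1L1 were named after their values were seen. The list, here with its 1 gene that was set apart, summed to 1994 to 1995 CPM in the CKI combination and 4046 to 4223 CPM in the YFSJ combination. This sum was 5507 to 5676 CPM with gefitinib alone and 1938 to 2137 CPM in untreated cells. Against gefitinib alone, 24 fell and 1 rose in the CKI combination and 13 fell and 0 rose in the YFSJ combination.

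Fatty acid synthesis genes were mostly lower as well, with 10 of 16 down, 1 up and a median log2 fold change of -0.62. SCD, the stearoyl-CoA desaturase, had 375, 357 and 340.4 CPM in the CKI combination against 1054, 882 and 863 CPM in the YFSJ combination, a log2 fold change of -1.39 ± 0.13. ACSS2, which makes acetyl-CoA from acetate, and FADS1, a desaturase of polyunsaturated fatty acids, fell by 1.23 ± 0.092 and 1.16 ± 0.093. The groups did not overlap for these 3 genes. TECR, of fatty acid elongation and named after its value was seen, was the gene that rose (0.55 ± 0.11).

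The targets of ATF4 and CHOP went both ways, more of them down. Of 30, 16 fell, 7 rose and 7 were not called, with a median log2 fold change of -0.37. PHGDH, the first enzyme of serine synthesis, had 89, 104 and 106 CPM in the CKI combination against 215, 241 and 261 CPM in the YFSJ combination, a log2 fold change of -1.26 ± 0.10. SLC6A9, a glycine transporter, had 33.1, 48.9 and 46.9 CPM against 98, 109 and 128 CPM (-1.38 ± 0.13). STC2, a secreted stanniocalcin, had 392, 448 and 445 CPM against 823, 871 and 1006 CPM (-1.07 ± 0.10). None of these overlapped, and the serine enzymes PSAT1 (-0.81 ± 0.083) and PSPH (-0.84 ± 0.084) fell too. CBS, which makes cystathionine for the synthesis of cysteine, fell furthest at -2.04 ± 0.68. The 7 that rose were ATF3 (2.07 ± 0.14) and DDIT3 (0.60 ± 0.19), both stress transcription factors, the phosphatase subunit PPP1R15A (1.46 ± 0.14), the cystine transporter subunits SLC7A11 and SLC3A2, the asparagine enzyme ASNS and the sestrin SESN2. PSAT1, PSPH, CBS, ATF4 and the 7 were named after their values were seen. ATF4 itself, whose activity is set mainly by translation, differed by -0.37 ± 0.17 (log2) and was not called (adjusted p 0.0574).

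The cytosolic aminoacyl-tRNA synthetases, which load amino acids onto tRNA and include ATF4 targets, fell for 14 of 19 and rose for 1, with a median log2 fold change of -0.42. WARS, for tryptophan, had 206, 209.8 and 207 CPM in the CKI combination against 566, 578 and 531 CPM in the YFSJ combination, a log2 fold change of -1.43 ± 0.08 without overlap. IARS, for isoleucine, and MARS, for methionine, fell by 1.19 ± 0.13 and 0.64 ± 0.07. FARSA, a subunit of the phenylalanine enzyme and named after its value was seen, rose by 0.65 ± 0.12. SLC7A5, the large neutral amino acid transporter that imports several of these amino acids, had 1070, 1273 and 1354 CPM against 1756, 2307 and 2401 CPM (-0.81 ± 0.13).

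Chaperones and degradation factors of the endoplasmic reticulum rose for 17 of 26 genes and fell for 2 (ATF6 and SEL1L), with a median log2 fold change of 0.40. DNAJB9, a co-chaperone of BiP, had 99.7, 89.7 and 81.8 CPM in the CKI combination against 26.8, 23.6 and 24.2 CPM in the YFSJ combination, a log2 fold change of 1.86 ± 0.16. MANF, a secreted stress-induced factor, had 164, 191 and 199 CPM against 86.5, 77.1 and 88.1 CPM (1.14 ± 0.11), and the co-chaperone DNAJB11 had 155, 152 and 158 CPM against 96.7, 86.8 and 93.5 CPM (0.75 ± 0.078). The groups were separate for all 3. HSPA5, which encodes BiP itself and was named after its value was seen, rose by 0.69 ± 0.089.

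Proteasome subunits shifted by less. Of 27, 14 rose and 1 fell (PSMD1), with a median log2 fold change of 0.22 and a range from -0.36 to 0.50. PSMC4, an ATPase of the regulatory particle, PSMD12, of its lid, and PSMA7, of the core ring, rose by 0.50 ± 0.10, 0.47 ± 0.085 and 0.44 ± 0.077. With the batch term for ALB counts 5 rose and 1 fell. Of 33 ribosomal protein genes 16 fell and 0 rose (median -0.22), among them RPL3 (1641, 1677 and 1643 CPM in the CKI combination against 2294, 2310 and 2356 CPM in the YFSJ combination), RPL10 (-0.48 ± 0.081) and RPL6 (-0.41 ± 0.08). Only 7 fell without library 1 of the YFSJ combination and 10 without library 3 of the CKI combination, and many of these genes have processed pseudogenes that can share their reads.

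Genes downstream of EGFR and ERK were higher in the CKI combination. Of 27, 20 rose, 0 fell and 7 were not called, with a median log2 fold change of 0.78. HBEGF, a ligand of EGFR, had 87.2, 75.3 and 80.0 CPM in the CKI combination against 20.9, 21.1 and 21.4 CPM in the YFSJ combination, a log2 fold change of 1.94 ± 0.13. DUSP5, a nuclear ERK phosphatase, had 177, 162 and 159 CPM against 66.1, 63.6 and 54.9 CPM (1.43 ± 0.11). DUSP1, a phosphatase of stress kinases, had 223, 203 and 191 CPM against 69.2, 64.6 and 69.8 CPM (1.60 ± 0.13). The groups did not overlap for any of the 3. DUSP6 (0.92 ± 0.12), SPRY4 (1.56 ± 0.15) and MYC (1.18 ± 0.15), 2 feedback inhibitors and a transcription factor of growth, also rose, whereas EGR1, an early growth response factor, differed by -0.0012 ± 0.28 and was not called. These 4 genes were named after their values were seen. Against gefitinib alone, 23 rose and 0 fell in the CKI combination (median 1.42), and 13 rose and 0 fell in the YFSJ combination (median 0.51), with the same libraries of gefitinib alone in both.

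Receptor tyrosine kinases went both ways: of 21, 9 fell and 7 rose (median -0.07, and 6 fell and 8 rose with library-size scaling). Over all genes 28.5% fell and 27.5% rose. EGFR had 80.0, 77.9 and 72.2 CPM in the CKI combination against 98.4, 106 and 96.7 CPM in the YFSJ combination, a log2 fold change of -0.39 ± 0.16 (adjusted p 0.0429). The groups did not overlap, but the call was lost with each of the 6 libraries left out in turn (adjusted p 0.0583 to 0.123) and with DESeq2 (0.0501). ERBB2 had 85.9, 111 and 110.5 CPM against 140.5, 152 and 166 CPM (-0.58 ± 0.11), and MET had 168, 151 and 141 CPM against 227, 206 and 190.4 CPM (-0.44 ± 0.13), whose call was lost without library 1 of the YFSJ combination (adjusted p 0.0545). ERBB3 fell by 0.29 ± 0.11 with overlapping libraries, and by 0.13 (adjusted p 0.378, not called) without library 1 of the YFSJ combination; its call was also lost without library 1 or 2 of the CKI combination (0.0752 and 0.0966). AXL had 51.8, 49 and 51.5 CPM against 50.2, 59.6 and 58.6 CPM, which overlap, and was not called (-0.14 ± 0.20, adjusted p 0.552). MST1R, the receptor of macrophage-stimulating protein, and IGF1R fell by 1.06 ± 0.13 and 0.45 ± 0.088. The ephrin receptor EPHA2 (1.26 ± 0.16, named after its value was seen) had the largest rise of the list. Without library 1 of the YFSJ combination 5 fell and 7 rose.

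NF-kappaB feedback genes and cytokines went both ways, 11 up and 5 down of 25 (median 0.30). BIRC3, an inhibitor of apoptosis, had 12.2, 12.6 and 11.5 CPM in the CKI combination against 3.96, 3.87 and 3.52 CPM in the YFSJ combination (1.68 ± 0.19). The inhibitor genes NFKBIE and NFKBIB rose by 1.12 ± 0.13 and 1.07 ± 0.14. The 5 that fell were CCL2 (-2.29 ± 0.38), SOD2 (-1.66 ± 0.15), CXCL1, CXCL2 and ICAM1, of which SOD2, CXCL1, CXCL2 and ICAM1 were named after their values were seen. Against gefitinib alone, 18 rose and 3 fell in the CKI combination and 13 rose and 1 fell in the YFSJ combination.

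The aryl hydrocarbon receptor target CYP1B1, a monooxygenase that oxidises polycyclic hydrocarbons and estradiol, fell. It had 314, 359.7 and 278 CPM in the CKI combination against 1194, 1178 and 1219 CPM in the YFSJ combination, and 795, 784 and 808 CPM with gefitinib alone. The log2 fold change was -1.92 ± 0.11 (adjusted p 4.57e-19), and gefitinib alone lay between the combinations. The receptor's repressor AHRR fell by 0.79 ± 0.12, while CYP1A1, a further target, rose by 0.75 ± 0.18 and AHR itself differed by -0.0062 ± 0.12 and was not called; CYP1A1 and AHR were named after their values were seen. Of the 9 genes of this list, 5 fell and 2 rose.

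Of 30 NRF2 and NADPH genes 13 fell and 6 rose (median -0.03). FTH1, the ferritin heavy chain, had 2475, 2272 and 2263 CPM in the CKI combination against 5671, 5398 and 4724 CPM in the YFSJ combination, a log2 fold change of -1.17 ± 0.10. FTL, the light chain, had 1240, 1177 and 1178 CPM against 2431, 2320 and 2072 CPM (-0.92 ± 0.093). Neither overlapped, and both have pseudogenes that can share reads. Other targets of the same factor rose, namely OSGIN1 (1.16 ± 0.16), SRXN1 (0.77 ± 0.094) and GCLM (0.66 ± 0.11), named after their values were seen. ABCC3, a conjugate exporter, fell by 1.15 ± 0.14, the glutathione transferase MGST1 by 0.77 ± 0.082 and the aldehyde dehydrogenase ALDH3B1 by 1.41 ± 0.14. Of 14 drug efflux and metabolism genes 5 fell and 4 rose, beside 28.5% lower and 27.5% higher over all genes.

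Lysosome and autophagy genes fell for 17 of 41 and rose for 9 (median -0.06). The cargo receptor SQSTM1 had 759.8, 841 and 843 CPM in the CKI combination against 1533, 1659 and 1611 CPM in the YFSJ combination (-0.98 ± 0.085). The protease CTSB had 377, 385 and 374 CPM against 754, 707 and 731 CPM (-0.95 ± 0.085). The groups did not overlap for either gene. TFEB, the transcription factor of lysosomal genes and named after its value was seen, rose by 2.31 ± 0.18.

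Interferon-stimulated genes fell for 19 of 34 and rose for 11 (median -0.33). IFI35 had 25.7, 27.2 and 28.6 CPM in the CKI combination against 73.1, 69.6 and 72.8 CPM in the YFSJ combination (-1.40 ± 0.10), the antiviral GTPase MX2 fell by 1.23 ± 0.13, and the apoptosis factor XAF1 by 1.01 ± 0.11. OASL (2.00 ± 0.11) and IFIT2 (1.76 ± 0.12), both induced by interferon and named after their values were seen, led the rises. Against gefitinib alone, 21 fell and 8 rose in the CKI combination and 20 fell and 0 rose in the YFSJ combination.

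In the BCL2 family 7 of 17 rose and 4 fell (median 0.37). The rises included the BH3-only death genes BCL2L11 (41.8, 31.6 and 37 CPM in the CKI combination against 19.1, 18.4 and 18.6 CPM in the YFSJ combination, 0.98 ± 0.12), BIK (1.73 ± 0.24) and PMAIP1 (0.77 ± 0.12), while the survival gene MCL1 (0.076 ± 0.075), named after its value was seen, was not called. With the batch term for ALB counts 6 rose and 1 fell. Of 22 p53 targets 9 rose and 7 fell (median 0.18), and 8 rose and 4 fell without library 1 of the YFSJ combination. Over all genes 27.5% rose and 28.5% fell. AEN, a nuclease of apoptosis, PLK2, a polo-like kinase, and TIGAR, a phosphatase of the glycolytic branch point, rose by 1.46 ± 0.10, 0.77 ± 0.092 and 0.62 ± 0.088, and CDKN1A, the p21 inhibitor named after its value was seen, fell by 0.18 ± 0.077.

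Hypoxia and glycolysis genes rose for 13 of 32 and fell for 4 (median 0.15), and with the batch term 8 rose and 3 fell. CA9, a hypoxia-induced carbonic anhydrase, had 12, 13.1 and 14.2 CPM in the CKI combination against 1.88, 1.51 and 2.51 CPM in the YFSJ combination (2.72 ± 0.19). ADM, adrenomedullin, had 54.9, 46.4 and 46.8 CPM against 11.8, 10.2 and 13.9 CPM (2.04 ± 0.14), and PFKFB3, which makes an activator of glycolysis, rose by 0.73 ± 0.086. Mesenchymal and matrix genes fell for 12 of 25 and rose for 4 (median -0.29). ITGB1, the beta-1 integrin, and LOX, a collagen cross-linking enzyme, fell by 0.89 ± 0.11 and 0.59 ± 0.087. SNAI1, a factor of the mesenchymal transition and named after its value was seen, rose by 1.79 ± 0.18. Of 17 epithelial and lung lineage genes 5 rose and 5 fell (median -0.20), beside 27.5% higher and 28.5% lower over all genes. The lineage factors FOXA1 (1.72 ± 0.21), FOXA2 (1.53 ± 0.15) and SOX2 (1.89 ± 0.30) were among the rises. The 5 that fell, named after their values were seen, were the keratins KRT17 (-1.15 ± 0.16), KRT7 (-0.93 ± 0.11) and KRT19 (-0.47 ± 0.14), the mucin MUC1 (-1.13 ± 0.16) and the adhesion protein EPCAM (-0.27 ± 0.11). Of 10 metallothionein and zinc genes 2 rose, the zinc exporter SLC30A1 and the zinc-sensing factor MTF1, and 1 fell, the zinc importer SLC39A10.

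**Figure D4:**
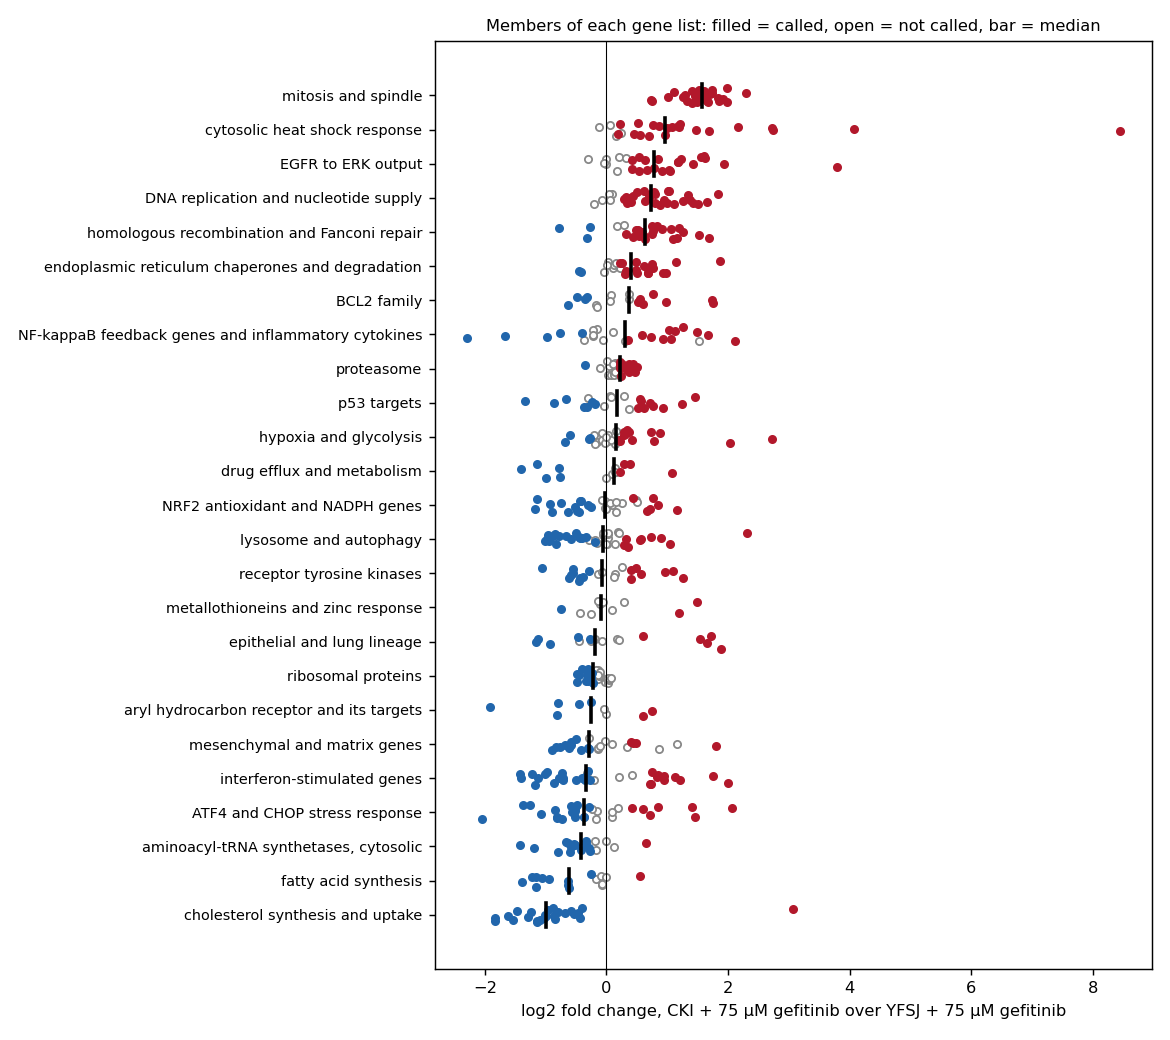
Log2 fold change, CKI combination over YFSJ combination, of the members of 25 gene lists (one point per gene; genes set apart are left out), with filled points for called genes, open points for genes not called and a bar for the median. Mitosis genes (median 1.57) lie at the top with none below 0, and cholesterol genes (median -0.999) at the bottom with 1 gene above 0.

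The largest falls were of genes at low or moderate level. CTSO, a lysosomal cysteine protease, had 2.48, 2.42 and 2.15 CPM in the CKI combination against 18.8, 15.3 and 15 CPM in the YFSJ combination (-2.80 ± 0.16). NPR1, the receptor of atrial natriuretic peptide, had 3.06, 3.67 and 2.87 CPM against 18.2, 18.5 and 18.4 CPM (-2.52 ± 0.15). C1RL, a protease like complement C1r, had 7.39, 9.46 and 10.1 CPM against 42.5, 42.5 and 43.8 CPM (-2.26 ± 0.11). No library of one group reached the other for these 3. CTSS, a protease of antigen processing, ARNT2, a partner of bHLH-PAS factors, and HTR3A, a serotonin-gated channel, fell by 2.36 ± 0.18, 2.58 ± 0.17 and 2.79 ± 0.21. EVI2B, LOC100286925 and C2orf54 fell by 2.28 ± 0.18, 2.77 ± 0.29 and 2.64 ± 0.15, and the chemokine CCL2 completes the 10.

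Without gefitinib the gap between the preparations was different for many genes. CKI alone and YFSJ alone, which share no library with the combinations and have at most 4 ALB counts a library, differed for 8008 genes (51.1%), 3802 higher (24.2%) and 4206 lower (26.8%) with CKI. That split depends on the scaling: 47.5% of the called genes were higher with CKI alone, against 68.8% with library-size scaling, which moves the median of all genes to 0.182 (log2), where it is -0.0146 otherwise. Of the 4319 genes higher in the CKI combination, 66.0% had the same sign without gefitinib, 1882 were called in the same direction and 824 in the opposite one. Of the 4477 lower genes these values were 69.9%, 1906 and 531. The difference between the gap with 75 µM gefitinib and the gap without it was called for 6296 genes (40.1%). Of these, 3136 were higher and 3160 lower (20.1% of all genes). They include each of the 824 and the 531, which their opposite calls made nearly certain. Of the called differences 49.8% were higher, and 33.0% with library-size scaling, where their median over all genes is -0.192.

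The mitosis genes changed direction between the settings. All 30 were lower with CKI alone than with YFSJ alone (median log2 fold change -1.21) and higher in the CKI combination than in the YFSJ combination, and the difference was called for all 30 (median 2.75). CDC20 had 176, 174 and 177 CPM with CKI alone against 410.1, 364 and 385 CPM with YFSJ alone, where the combinations had 243 ± 14.2 and 49.4 ± 4.34 CPM (mean and SD, n = 3 each). The order of the preparations was therefore opposite with and without gefitinib. All 34 replication genes were lower with CKI alone (median -1.33), and the difference was called for all 34.

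Each preparation's own response to gefitinib gives the same difference from its parts. Adding 75 µM gefitinib to YFSJ changed 8103 genes (51.7%, of which 4090 higher), adding it to CKI changed 4661 (29.7%, of which 2360 higher), and gefitinib alone changed 8628 against untreated cells at 24 h (55.0%). Beside CKI 9 of the 30 mitosis genes rose with gefitinib and 0 fell (median 0.14, and 5 rose with library-size scaling), while beside YFSJ all 30 fell (median -2.59), as all 30 did with gefitinib alone (median -2.43). All 30 were also lower with CKI alone than in untreated cells at 24 h (median -1.32), a comparison in which 8077 genes (51.5%) were called. The replication genes had medians of 0.08 beside CKI and -1.85 beside YFSJ, where all 34 fell. Library-size scaling moves the median of all genes to 0.138 beside YFSJ, 0.119 for gefitinib alone and 0.184 for CKI alone against untreated cells.

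Heat shock and stress genes differed in the same comparison. Of 25 heat shock genes, 10 rose and 0 fell with gefitinib beside CKI (median 0.18), against 1 that rose and 18 that fell beside YFSJ (median -0.69). HSPA6 rose by 2.46 ± 0.13 (log2) with gefitinib beside CKI and differed by -0.23 ± 0.22 beside YFSJ, which was not called (adjusted p 0.398). Between CKI alone and YFSJ alone 10 heat shock genes were higher and 8 lower, and 14 were higher and 4 lower with library-size scaling. In the ATF4 and CHOP list of 30, gefitinib beside CKI raised 7 and lowered 5 (median -0.02), against 28 that rose and 0 that fell beside YFSJ (median 1.45). With CKI alone 24 of them were higher than with YFSJ alone and 0 lower (median 1.11), and the difference between the gaps was called lower for 27. PHGDH had 106, 133 and 100.2 CPM with CKI alone against 56.5, 48.5 and 49.7 CPM with YFSJ alone, the reverse of its order in the combinations.

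The cholesterol genes turned too. With CKI alone 15 of 25 were higher than with YFSJ alone and 2 lower (median 0.44), whereas 24 fell in the combinations, and the difference between the gaps was called lower for 21 and higher for 0. HMGCS1 had 178, 165 and 179.7 CPM with CKI alone against 115, 128 and 125 CPM with YFSJ alone. Gefitinib lowered 16 and raised 1 beside CKI (median -0.55), and raised 20 and lowered 0 beside YFSJ (median 0.84). Proteasome genes were lower for 23 of 27 with CKI alone (11 with library-size scaling) and higher for 14 in the combinations. Other genes had a gap of like sign without gefitinib. For the receptors MST1R and ERBB2, the integrin ITGB1, BIK and DUSP1 it was -1.03, -0.58, -0.85, 1.79 and 1.85 on the log2 scale. The gap with gefitinib minus the gap without it was -0.033 ± 0.18, 0.0073 ± 0.15, -0.042 ± 0.15, -0.063 ± 0.34 and -0.25 ± 0.18 for these 5, which were picked after their values were seen, and was not called for any of them (adjusted p 0.288 to 0.98).

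**Figure D5:**
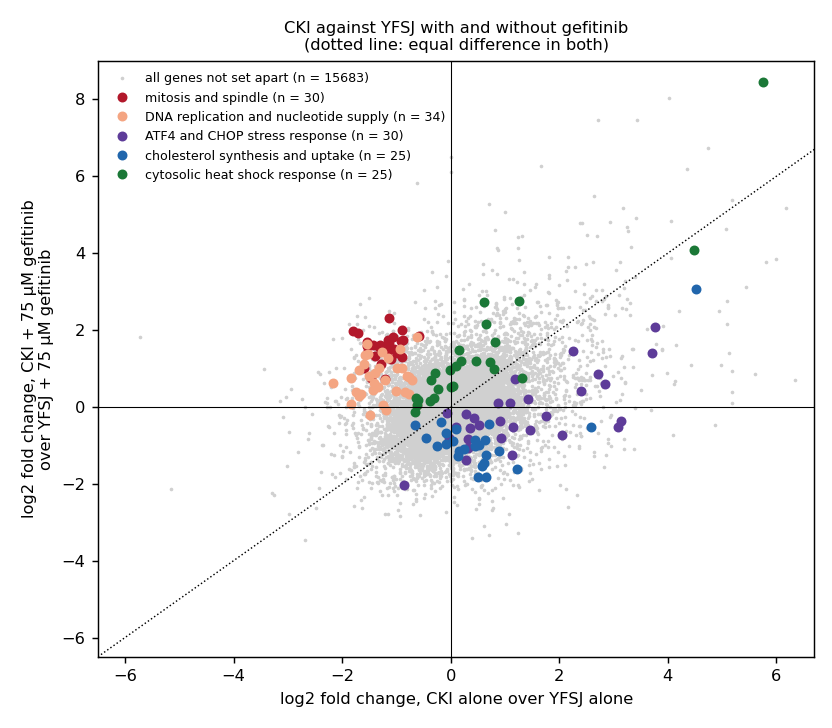
Log2 fold change of each gene not set apart between CKI and YFSJ with 75 µM gefitinib (vertical axis) against that without gefitinib (horizontal axis), with 5 gene lists coloured and a dotted line where both are equal. Mitosis genes lie at the upper left, as do the replication genes except 2 that are below 0 on both axes, cholesterol genes lie mostly at the lower right, and HSPA6 lies at the far upper right.

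The same pair of preparations was also compared at 50 µM gefitinib, in 6 further libraries. CKI with gefitinib differed from YFSJ with gefitinib for 7958 genes (50.7%), 3927 higher (25.0%) and 4031 lower (25.7%). Of the genes called at 75 µM, 96.5% of the 4319 higher and 97.4% of the 4477 lower had the same sign at 50 µM, 3233 and 3339 were called in that direction, and 10 and 4 in the opposite one. The mitosis genes were all 30 higher (median 1.10), 20 of 25 heat shock genes were higher and 0 lower, and 23 of 25 cholesterol genes were lower and 1 higher. HSPA6 differed by 7.80 ± 0.18, PLK1 by 1.08 ± 0.10 and HMGCS1 by -2.03 ± 0.11. In that CKI group 2 of 3 libraries held over 1000 ALB counts. With only the third library, 5111 genes were called, and the counts were 28 mitosis genes higher and 0 lower, 17 heat shock genes higher and 0 lower, and 21 cholesterol genes lower and 1 higher; this lone library is assumed to vary like the other groups.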

How the data were processed

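The authors deposited raw counts per gene symbol for 48 libraries, with 3 replicates in each of 16 groups. The submitters' processing notes name Trim Galore 0.4.2, STAR 2.5.3a, edgeR and the build hg19. The counting tool, annotation and strand setting are not given in the sources used here, and reads of overlapping antisense genes cannot be told apart. The count columns were used as deposited.

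Of 27978 symbols, 4194 had no count in any library, and 15789 passed the edgeR filter on low counts (minimum count 10, minimum total 15), which kept 99.9684% of counts. All 48 libraries were fitted together with edgeR 4.0.16 (R 4.3.3, limma 3.58.1) with TMM factors and the robust quasi-likelihood test (residual df 32, biological coefficient of variation 0.102). P-values were Benjamini-Hochberg adjusted over all genes tested, and "called" means an adjusted p under 0.05. CPM values are scaled by TMM factors, except the summed levels of the cell type marker lists, which are scaled by total counts alone. Markers above or below every library of the other group were counted on raw counts. The standard error is the log2 fold change divided by the square root of F. Replicate libraries differed beyond sampling noise. Intervals and p-values reflect the spread between these libraries. The count test was tested on simulated data in which few genes changed and all genes had the same dispersion. That setting is simpler than these data and does not cover differences as wide as those found here.

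The genes set apart numbered 39 by marker list, 89 by batch term and 90 by separation, with overlaps. Named genes were the 10 largest called rises and the 10 largest falls whose libraries did not overlap and whose higher group averaged 5 CPM or more. For lists with enough called members they also include the 3 called members with the smallest p in the direction with more calls, and in any case EGFR, ERBB2, ERBB3, MET, AXL and the liver, lung and breast markers. Some genes that the rule names are not reported here. Other genes were chosen after their values were seen, as said beside them or where a full set of list members is named. The comparison, the lists and these members were chosen with earlier results of these data known. Alternatives were other scalings, no filter, a replicate block, a batch term, a stricter threshold, the compared libraries only, DESeq2 1.42.0, and each library left out in turn. Promoter sequences are from RefSeq (GRCh38.p14) and were matched by symbol for 11626 of the 15789 genes.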

Additional observations from a re-analysis of the deposited data

Results flagged for a closer look

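The gap between CKI and YFSJ differed with and without 75 µM gefitinib for 6296 genes in total by edgeR's quasi-likelihood test of the difference itself, and for 70 of the 94 named genes, 33 of them higher and 37 lower. All values below are the log2 gap with gefitinib minus the log2 gap without it, so a positive value means that CKI stood higher against YFSJ when gefitinib was present. For 26 of the named genes the gap was called with opposite signs in the 2 settings. Most named genes were taken by their size or p and their direction between the combinations, which is a part of this difference. Their share of calls therefore cannot be set beside that over all genes, and their signs do not stand for their lists, whose counts follow. No explanation of these differences was tested.

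The difference was called higher for 30 of 30 mitosis, 34 of 34 replication and 22 of 25 repair genes, and lower for 0 of each. CDC20, PLK1 and AURKA of mitosis stood at 3.44, 3.63 and 2.87. CDC6, GINS2 and CDT1 of replication stood at 2.45, 3.18 and 2.44, and EXO1, RAD54L and FANCA of repair at 2.87, 2.25 and 2.04. Of the 22 p53 targets 4 were higher and 8 lower (median -0.14, and 3 higher and 10 lower with library-size scaling), with AEN, PLK2 and TIGAR at 1.26, 0.54 and 0.34.

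Of 25 heat shock genes 20 were higher and 1 lower, with HSPA6, HSPA1A and DNAJB1 at 2.69, 2.10 and 1.52. Endoplasmic reticulum genes went both ways, 9 higher and 7 lower of 26 (6 higher and 8 lower with library-size scaling), with MANF and DNAJB11 at 0.73 and 0.32 and DNAJB9 at -0.55. Of 27 proteasome subunits 24 were higher and 0 lower, and PSMA7, PSMD12 and PSMC4 had 0.82, 0.68 and 0.87. Of 27 EGFR and ERK genes 11 were higher and 0 lower (7 higher and 3 lower with library-size scaling), with HBEGF at 0.59.

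Of the 10 largest rises, ARC, GADD45G, RGS2, NR4A1 and PGF had 1.82, 1.43, 1.97, 1.73 and 2.56, and the Notch ligand DLL4 had -2.14. Of 25 NF-kappaB genes 7 were higher and 5 lower (median 0.037, and -0.13 with library-size scaling), with BIRC3 and NFKBIB at 1.64 and 0.93. Of 32 hypoxia and glycolysis genes 15 were higher and 7 lower, with CA9 and PFKFB3 at 3.38 and 0.84. Of 17 epithelial and lung lineage genes 6 were higher and 3 lower (median -0.089, and 4 higher and 6 lower with library-size scaling), with SOX2 and FOXA2 at 3.07 and 1.31. AXL, which was not called between the combinations, had 0.90.

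The difference was called lower for 21 of 25 cholesterol genes and higher for 0, lower for 9 of 16 fatty acid genes and higher for 1, lower for 27 of 30 ATF4 and CHOP genes and higher for 0, and lower for 12 of 19 synthetases and higher for 2. HMGCS1, SQLE and MSMO1 of cholesterol synthesis had -2.34, -2.07 and -2.84, and ACSS2, FADS1 and SCD of fatty acid synthesis -1.95, -1.05 and -1.81. PHGDH, SLC6A9, STC2 and SLC7A5 of the ATF4 response had -2.39, -1.67, -1.39 and -0.77, and the synthetases WARS, IARS and MARS -1.42, -0.97 and -1.12.

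Of 41 lysosome genes 24 were lower and 3 higher, with SQSTM1 and CTSB at -1.36 and -0.58. Of 30 NRF2 genes 13 were lower and 0 higher: the ferritins FTH1 and FTL had -1.27 and -1.51, and ABCC3 -0.78. MGST1 of the drug metabolism list had -0.66 (4 of 14 higher, 2 lower, and 2 higher and 5 lower with library-size scaling). Of 9 aryl hydrocarbon receptor genes 4 were lower and 0 higher, with CYP1B1 and AHRR at -1.42 and -0.56. Of 34 interferon-stimulated genes 14 were higher and 5 lower (median 0.31), while IFI35 and XAF1 had -0.45 and -0.92. RPL3 had -0.31 and was the 1 ribosomal protein gene of 33 with a call (0 higher, and 11 lower with library-size scaling). Of the 10 largest falls, CTSO, HTR3A, LOC100286925, C2orf54 and ARNT2 had -2.24, -1.58, -1.62, -3.41 and -0.80, and NPR1, CTSS, EVI2B and C1RL -3.05, -1.87, -1.12 and -1.78.

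The call of the difference was lost in at least 1 alternative for genes that include TIGAR, DNAJB9, DNAJB11, HBEGF, RPL3, PLK2, AXL, AHRR, IFI35 and DLL4, and no sign turned. With a term for the ALB-rich libraries, DNAJB9 stood at -0.11 (adjusted p 0.771), TIGAR at 0.19 (0.351) and HBEGF at 0.52 (0.0723). DLL4 lost its call without library 2 of YFSJ alone (adjusted p 0.0632), AHRR without library 1 of the CKI combination (0.0623) and IFI35 without library 2 of CKI alone (0.105).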

How the results depend on the processing

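The count of genes called between the combinations ran from 6616, with a batch term that marks the ALB-rich libraries, to 8977, with only the libraries compared, against 8796, and DESeq2 called 8783. With each library left out in turn it was 7943 to 8151. The same ranges were 7023 to 7605 for the preparations alone, 7112 to 7287 at 50 µM gefitinib, 5636 to 6016 for the difference of the gaps and 8316 to 8459 for the CKI combination against gefitinib alone. The YFSJ combination against gefitinib alone, 546 genes, gave 269 at an adjusted p under 0.01, 1085 with only the libraries compared and 287 to 462 with a library left out: 319 and 294 without library 1 or 2 of the YFSJ combination, and 319 and 287 without library 1 or 3 of gefitinib alone. The 50 µM comparison, 7958 genes, gave 5111 with only the CKI library that has at most 1000 ALB counts, where fewer samples are compared. The cause of the other shifts was not tested.

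The fit with a replicate block called 8726 genes between the combinations. Same-numbered libraries of the combinations had correlations of 0.227, 0.0216 and 0.253 of their deviations from the group means, library 2 of the CKI combination correlated best with number 3, and the numbers were not taken as pairs. Of 1504 values of named genes under alternatives, 1486 stayed on the same side of the threshold, 18 lost the call (EGFR, ERBB3 and MET) and 0 changed sign. Most named genes were picked for a large difference or small p in the same data, so that few lost calls follow largely from that choice. EGFR, ERBB3 and MET were named in any case. EGFR was not called with relative log expression factors (adjusted p 0.0616), library-size scaling (0.0672), no filter (0.0774) or the batch term (0.109), and MET not without library 1 of the YFSJ combination (0.0545). With 3 libraries a group, small differences may be missed.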
